A study of Mus musculus with 6 samples.

Results

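Livers of CYP2D6-humanized mice were profiled on Affymetrix arrays before pregnancy, at day 21 of pregnancy and at day 7 after birth, and the comparison described here sets the postpartum liver against the pre-pregnancy liver. All the animals were C57BL/6 mice carrying the CYP2D6 transgene, which encodes a human drug-metabolising cytochrome P450, so controls and postpartum animals shared the same genotype. Each group held 2 arrays of total liver RNA labelled as biological replicates, so 4 of the 6 arrays belong to the comparison and the 2 arrays of late pregnancy are given beside them. The labels do not give age, litter, whether the pups were nursed, feeding, the hour of collection, whether each array was 1 animal or a pool, or the promoter that drives the transgene. Human CYP2D6 had no named probe set, and its level was not analysed here.

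One probe set stood for each gene, the one with the highest mean over the 6 arrays among those with a single gene symbol, which gave 18194 genes from 45101 probe sets. Levels are the deposited log2 values, in which 1 unit is a 2-fold step, and arrays had medians from 5.09 to 5.15. The 2 arrays of a group differed by a median of 0.12 before pregnancy and after birth and 0.14 in late pregnancy. A group mean under 5.515, the 40th percentile of the genes, is called dim below, and for dim groups the log2 difference is given in place of a fold, since values near the bottom of the range are compressed. Differences are postpartum minus pre-pregnancy with their standard error (SE), tested with limma over all 6 arrays, and a gene was called at a Benjamini-Hochberg adjusted p under 0.05. The SE pools the spread within all 3 groups, late pregnancy included, and is moderated over all genes. With 2 samples a group, the p-values speak for these samples only.

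The liver labels were borne out by the 11 measured hepatocyte genes of 12 listed, whose median level lay between 13.62 and 14.13 on the 6 arrays. Markers of fat cells (medians 3.92 to 4.12), skeletal muscle (5.16 to 5.38), mammary epithelium (4.03 to 4.26) and placenta or uterus (3.45 to 3.86) were dim on every array, and none of these markers was called. In bulk liver RNA, fewer cells of a type and less RNA per cell cannot be told apart.

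The adult liver is mostly made of hepatocytes that rest outside the cell cycle, make fat, bile acids and plasma proteins, and detoxify drugs and hormones. In rodents the maternal liver enlarges during pregnancy, and after birth the mother's metabolism is turned to milk, with a large demand for glucose, amino acids and fat. A cell that divides first copies its DNA, with the Mcm helicase opening the helix ahead of the polymerases, and later separates the copies in mitosis under the cyclin B and Aurora kinases. Genes of the first step are known to be driven by E2F factors, and genes of the second by complexes that read the cell cycle homology region (CHR) and CCAAT boxes of their promoters.

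These promoter elements are shown because the calls against pre-pregnancy were mostly lower among genes of DNA replication and were all higher among the fewer called genes of mitosis. The windows below run from 250 bases before to 50 after the annotated start, 5′ to 3′ on the gene's strand, from RefSeq on GRCm38.p6. In Mcm6 (chr1:128359656-128359955, minus strand) and Mcm5 (chr8:75109259-75109558, plus strand), capitals mark TTTCCCGC, TTTCGCGC, TTTGCCGC or TTTGGCGC on either strand, letters of the E2F site, and runs longer than 8 bases hold overlapping matches.
Mcm6: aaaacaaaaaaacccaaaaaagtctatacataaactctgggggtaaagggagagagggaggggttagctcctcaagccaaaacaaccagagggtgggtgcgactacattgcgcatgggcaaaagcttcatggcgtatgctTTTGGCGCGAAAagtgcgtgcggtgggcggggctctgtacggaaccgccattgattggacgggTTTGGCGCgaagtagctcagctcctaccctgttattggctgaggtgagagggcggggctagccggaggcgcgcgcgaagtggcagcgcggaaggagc
Mcm5: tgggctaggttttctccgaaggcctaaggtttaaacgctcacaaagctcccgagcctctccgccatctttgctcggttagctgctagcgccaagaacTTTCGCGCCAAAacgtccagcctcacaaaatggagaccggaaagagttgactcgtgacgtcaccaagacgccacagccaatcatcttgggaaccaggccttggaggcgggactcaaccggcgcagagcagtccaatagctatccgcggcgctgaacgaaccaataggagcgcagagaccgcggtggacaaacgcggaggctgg
In Ccnb2 (chr9:70421505-70421804, minus strand) and Aurka (chr2:172370521-172370820, minus strand), capitals mark the CHR letters TTTGAA or TTCGAA and the letters CCAAT on either strand.
Ccnb2: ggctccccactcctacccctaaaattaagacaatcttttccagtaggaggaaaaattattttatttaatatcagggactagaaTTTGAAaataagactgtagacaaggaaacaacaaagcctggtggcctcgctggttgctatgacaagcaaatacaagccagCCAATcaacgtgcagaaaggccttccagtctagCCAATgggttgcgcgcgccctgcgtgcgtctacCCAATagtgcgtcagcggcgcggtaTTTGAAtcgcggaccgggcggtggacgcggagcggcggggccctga
Aurka: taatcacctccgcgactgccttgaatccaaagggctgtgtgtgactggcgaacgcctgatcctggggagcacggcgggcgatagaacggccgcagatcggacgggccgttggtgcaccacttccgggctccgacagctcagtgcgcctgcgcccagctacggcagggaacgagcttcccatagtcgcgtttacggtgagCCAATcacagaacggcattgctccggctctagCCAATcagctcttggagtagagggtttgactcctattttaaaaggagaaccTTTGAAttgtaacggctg
The E2F letters occurred in 10 of 30 replication gene windows (33.3%), in 1 of 23 mitosis windows (4.35%) and in 488 of 14453 windows of all genes tested (3.38%). The CHR letters occurred in 19 of 23 mitosis windows (82.6%), 6 of 30 replication windows (20%) and 15% of all windows. CCAAT stood in 18 of the mitosis windows (78.3%) and 16 of the replication windows (53.3%), against 38.2% of all. Both CHR and CCAAT letters stood in 73.9% of mitosis windows, 13.3% of replication windows and 6.13% of all. The windows of Mcm2 and Chek1 held no E2F letters and that of Nusap1 neither of the other motifs, which says only that these letters are not in those windows.

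One week after birth, 1393 of 18194 genes (7.66%) were called, 711 higher (3.91%) and 682 lower (3.75%), and the median difference over all genes was 0.025. Of these, 138 rose and 125 fell by at least 2-fold. No called gene had overlapping pre-pregnancy and postpartum arrays, but 9563 genes (52.6% of all) had groups that did not overlap, so separation alone says little with 2 arrays against 2. At an unadjusted p under 0.05 there were 4170 genes. For the genes named below, the same fit compared day 7 after birth with late pregnancy, where 599 of all genes were called (3.29%). Counts in the lists below stand beside shares of 3.91% higher and 3.75% lower over all genes.

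The calls depended strongly on having both arrays of a group. With 1 array left out, the lone array of its group was assumed to vary like the other groups, and leaving out pre-pregnancy replicate 1 gave 73 calls. Leaving out the other pre-pregnancy array gave 331, postpartum replicate 1 gave 537 and postpartum replicate 2 gave 260. Only 40 of the higher and 26 of the lower calls held in all 4 of these fits, and such genes are said below to hold throughout. Each other call named below was lost without pre-pregnancy replicate 1, except those of Gsta2 and Prom1, which were lost without postpartum replicate 2. No called gene named here changed direction in any of these fits. Uncalled genes that passed with the 4 compared arrays alone include Cdc20, Ccna2, Acly, Pnpla3, Vnn1, Angptl8, Elovl3, Saa1, Ppp1r3c, Lyve1 and Peg3. The SE of the main fit also holds the spread of the late pregnancy arrays. Left-out counts below are the numbers of a list's genes called when pre-pregnancy replicate 1, the other pre-pregnancy array, postpartum replicate 1 and postpartum replicate 2 were left out, in that order. At least 1 other probe set had the opposite sign, besides genes where this is said, for Mcm5, Pola1, Rrm1, Racgap1, Cdk6, Scp2, Il1r1, Ntrk2, Fkbp5, Pdia4, Edem1, Sparc and Ddc.

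**Figure D1:**
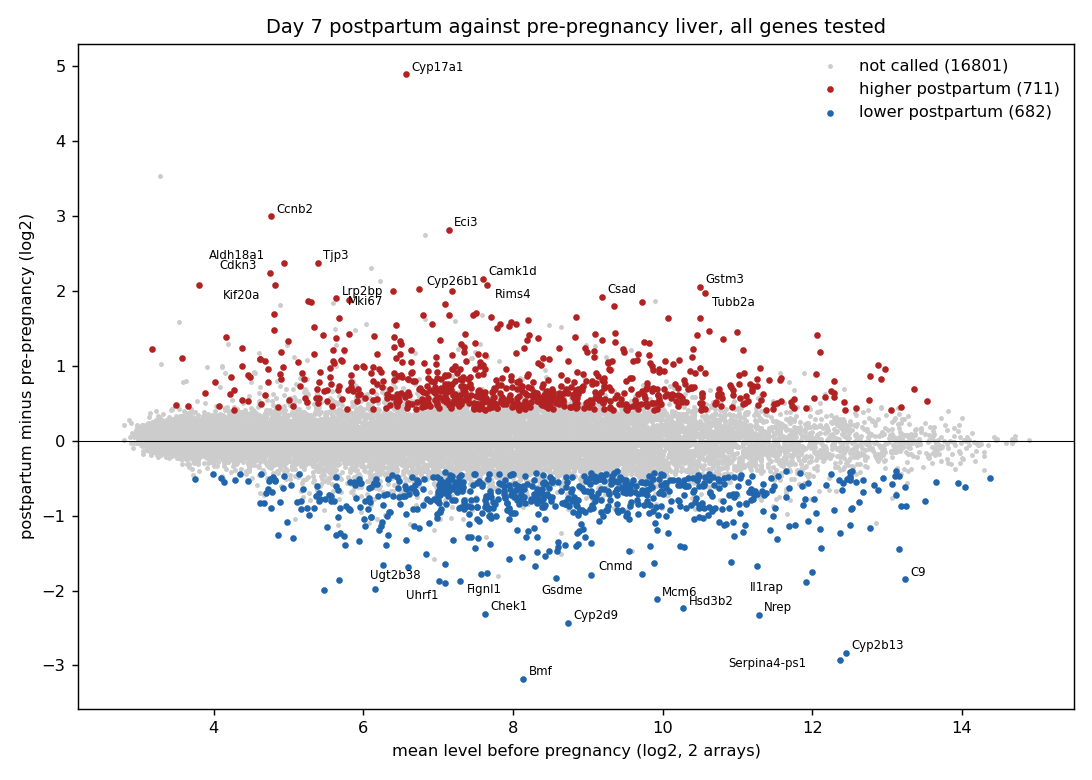
Each point is a gene, with its mean log2 level over the 2 pre-pregnancy arrays on the horizontal axis and its log2 difference, postpartum minus pre-pregnancy, on the vertical axis. The 711 higher and 682 lower calls are coloured and the 15 largest rises and falls chosen by rule are labelled, with Cyp17a1 (4.89) at the top and Bmf (-3.18) at the bottom.

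The largest rise was in Cyp17a1, the 17-hydroxylase and lyase that makes androgen precursors. Cyp17a1 stood at 6.64 and 6.49 before pregnancy and at 11.91 and 11.01 after birth, 29.8-fold higher (log2 difference 4.89 ± 0.287, adjusted p 0.000862, limma). The late pregnancy arrays were as high, at 11.39 and 11.95, and the difference from late pregnancy did not pass (-0.21, adjusted p 0.727). Eci3, a peroxisomal isomerase for unsaturated fatty acids, stood at 7.31 and 6.97 before pregnancy, 8.21 and 8.53 in late pregnancy and 10.05 and 9.87 after birth. That was 7.06-fold above pre-pregnancy (2.82 ± 0.159, adjusted p 0.000862) and also above late pregnancy (1.59, adjusted p 0.00406). Eci3 thus had a level before pregnancy, an intermediate one in late pregnancy and its highest after birth, with no overlap of the groups.

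Gstm3, a glutathione transferase, went from 10.71 and 10.28 to 12.57 and 12.54, 4.17-fold higher (2.06 ± 0.145, adjusted p 0.00138). Lrp2bp, a megalin-binding protein, rose from 5.78 and 5.49 to 7.53 and 7.55 (1.90 ± 0.147, adjusted p 0.00143), while its 3 other, dimmer probe sets differed by 0.01 to 0.26. Camk1d, a calcium/calmodulin-dependent kinase, was 4.47-fold higher and Rims4, of a family that works in vesicle release, 4.23-fold higher, and their other probe sets differed by 1.89 to 2.48 and 2.22. Tubb2a, a beta tubulin, was 3.93-fold higher, from 10.41 and 10.71 to 12.46 and 12.61. Tjp3, a tight junction scaffold, went from dim levels of 5.36 and 5.42 to 7.83 and 7.70 (2.38 ± 0.238, adjusted p 0.00347). Cyp26b1, which breaks down retinoic acid, rose from 6.31 and 7.18 to 8.94 and 8.61, with a call near the threshold (adjusted p 0.0476). Csad and Aldh18a1 are given with the amino acid genes, and Ccnb2, Cdkn3, Kif20a and Mki67 with mitosis. Of the rises in this and the preceding paragraph, those of Cyp17a1, Eci3, Gstm3 and Lrp2bp held throughout.

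The largest fall was in Bmf, a pro-death member of the Bcl2 family. Bmf stood at 8.33 and 7.95 before pregnancy and at dim levels of 5.15 and 4.78 after birth, a log2 difference of -3.18 ± 0.165 (adjusted p 0.000862, limma). The late pregnancy arrays read 4.91 and 4.86, and the 2 other probe sets of Bmf differed by only -0.34 and -0.08. Il1rap, the accessory chain of the interleukin-1 receptor, fell 3.71-fold, from 11.94 and 11.90 to 10.02 and 10.04 (-1.89 ± 0.108, adjusted p 0.000862). Its 4 other probe sets differed by -0.86 to 0.02. It lay between in late pregnancy (10.78 and 10.59), and the postpartum level was also below the pregnant one (-0.66, adjusted p 0.0233). Gsdme, a pore-forming gasdermin, fell 3.56-fold from 8.68 and 8.46 to 6.89 and 6.59, while its other probe set differed by -0.02. Cnmd, chondromodulin, fell 3.47-fold from 9.28 and 8.80 to 7.30 and 7.19, and was dim in late pregnancy at 5.0 and 4.73. The postpartum level of Cnmd was above the pregnant one (2.38, adjusted p 0.00161). The falls of these 4 genes held throughout, as did that of Fignl1, a recombination factor, at 7.54 and 7.04 before and a dim 5.34 and 5.50 after, though its other probe set differed by 0.34.

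Further falls were less tight between replicates. Serpina4-ps1, a serpin pseudogene with near relatives on the array, went from 12.26 and 12.48 to 8.70 and 10.18, 7.62-fold lower. Its postpartum arrays lay further apart than those of any gene named so far. Nrep, a neuronal regeneration protein, was 5.01-fold lower, from 11.07 and 11.50 to 8.47 and 9.45. Both calls were also lost without pre-pregnancy replicate 2. Over the arrays left out in turn, the difference ran from -3.67 to -2.19 for Serpina4-ps1 and from -2.82 to -1.84 for Nrep. The remaining large falls, Cyp2b13, Cyp2d9, Chek1, Hsd3b2, Mcm6, Uhrf1, Ugt2b38 and C9, are given with their groups.

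Genes that copy DNA were lower after birth than before pregnancy. Of 35 measured replication genes of 36 listed, 23 fell (65.7%, against 3.75% of all genes), 1 rose and 11 were not called, with a median difference of -0.82. All 7 measured Mcm genes fell, the 6 of the helicase and Mcm10. Mcm6 had the largest fall of the 7, from 10.14 and 9.70 to 7.83 and 7.78, 4.33-fold (-2.12 ± 0.148, adjusted p 0.00138, limma). Mcm5 fell 3.45-fold from 9.89 and 9.55 to 7.95 and 7.92, and Mcm2 2.44-fold from 9.05 and 8.88 to 7.72 and 7.64. Mcm3, Mcm4 and Mcm7 fell 2.59-fold, 2.34-fold and 1.81-fold. Mcm10, which works at the helicase without being part of it, fell least (1.55-fold, adjusted p 0.0449). Its call was lost with quantile normalization again and with the mean of all probe sets, and its 2 other probe sets differed by -0.10 and 0.12.

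Of the 7 Mcm genes, 5 were called higher after birth than in late pregnancy. Mcm6 read 5.38 and 5.31 and Mcm5 6.32 and 5.73 there, so the postpartum levels were above the pregnant ones (2.46, adjusted p 0.000706, and 1.91, adjusted p 0.00468). Over the whole replication list, 13 genes were called higher after birth than in late pregnancy and none lower. The median level of the list was 8.17 and 7.73 before pregnancy, 6.30 and 6.07 in late pregnancy and 6.91 and 6.94 after birth, so the postpartum arrays lay between the other groups.

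At the replication fork, 10 of 17 genes fell. Prim1, which lays the RNA primer, fell 2.78-fold from 8.69 and 8.27 to 7.07 and 6.94. Pcna, the sliding clamp, fell 2.27-fold from 11.60 and 11.27 to 10.34 and 10.16. Gins1 of the helicase complex fell 2.44-fold, the polymerase subunits Pole and Pola1 2.23-fold and 1.96-fold, and the single-strand binding subunit Rpa2 2.06-fold. The clamp loader genes Rfc3 and Rfc4 fell 2.04-fold and 2.44-fold, and the ligase Lig1 1.71-fold. The licensing factor Cdc6 was dim in every group and fell by 0.80 on the log2 scale (adjusted p 0.0483). Dbf4, the activator of the Cdc7 kinase, went the other way without passing (0.70, adjusted p 0.31), and Chaf1b, a histone chaperone, differed by -0.53 (adjusted p 0.161).

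Of 5 measured nucleotide supply genes, 3 fell: Rrm1 of ribonucleotide reductase 1.77-fold, Tk1, thymidine kinase, 1.56-fold, and Dut, which removes dUTP, 1.68-fold. Among the regulators of the step from G1 to S phase, Chek1, the replication checkpoint kinase, went from 8.01 and 7.24 to a dim 5.30 and 5.33 (-2.31 ± 0.244, adjusted p 0.00432). Uhrf1, which carries DNA methylation over to the new strand, fell to a dim 5.22 and 5.17 from 7.16 and 7.03 (-1.90 ± 0.181). Ccne2, a cyclin of S phase entry, fell from 6.58 and 6.02 to a dim 4.62 and 5.19. E2f2, an E2F activator, was the 1 riser, from a dim 5.11 and 5.15 to 6.15 and 6.22 (1.06 ± 0.113, adjusted p 0.00432). Of these replication genes, Mcm6, Mcm2, Prim1 and Chek1 held throughout, and the list held 4 falls with pre-pregnancy replicate 1 left out, 16 with the other pre-pregnancy array left out, and 14 and 13 with postpartum replicates 1 and 2 left out.

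Of 27 measured mitosis genes of 28 listed, 7 were called higher after birth (25.9%, against 3.91% of all genes), none lower and 20 not called. All 27 differences were positive, with a median of 1.19, but no mitosis gene was called with either pre-pregnancy array or postpartum replicate 2 left out. Ccnb2, cyclin B2, went from a dim 4.77 and 4.77 to 7.25 and 8.29 (3.0 ± 0.626, adjusted p 0.03, limma). Mki67, the proliferation antigen, rose 4.01-fold from 6.41 and 6.38 to 8.15 and 8.65 (2.00 ± 0.316, adjusted p 0.013). Aurka, a spindle pole kinase, rose 3.11-fold from 5.70 and 5.64 to 6.80 and 7.81, while its other probe set differed by only 0.28. Postpartum replicate 2 was the higher of the postpartum arrays in each of these 3 genes.

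The kinesin Kif20a rose from a dim 4.89 and 4.75 to 6.23 and 7.57, and Nusap1, which bundles spindle microtubules, from a dim 4.78 and 4.84 to 6.21 and 6.79. Racgap1, of the cleavage furrow, and Cenpe, of the kinetochore, rose by 1.19 and 1.38 on the log2 scale from dim levels. The other probe sets of Nusap1 and Cenpe differed by only 0.24 and 0.36. Cdkn3, a phosphatase of the cyclin-dependent kinases that stands outside the list, rose by 2.24 from a dim 4.98 and 4.51. The differences of Cdc20, which starts chromosome separation, and Ccna2, cyclin A2, were as large but missed the threshold (2.74, adjusted p 0.0585, and 2.31, adjusted p 0.0532). Cdc20 stood at 6.83 and 6.81 before pregnancy, 8.35 and 5.96 in late pregnancy and 8.85 and 10.28 after birth, so the 2 pregnant arrays lay on both sides of the pre-pregnancy ones.

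The spread of the mitosis genes between replicates was wide. The median level of the list was 5.24 and 4.91 before pregnancy, 5.78 and 4.78 in late pregnancy and 6.23 and 6.97 after birth. Without postpartum replicate 1, 8 mitosis genes were called. Without postpartum replicate 2 the difference of Cenpe was 0.85 and without postpartum replicate 1 it was 1.92. With the 4 arrays alone 15 mitosis genes were called, with trended and robust variance 2, and without dim genes 4. Against late pregnancy, 2 of the genes were called higher and none lower, Mki67 among them (2.00, adjusted p 0.02). The median difference from late pregnancy was positive in both lists, 1.18 for mitosis and 0.54 for replication.

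**Figure D2:**
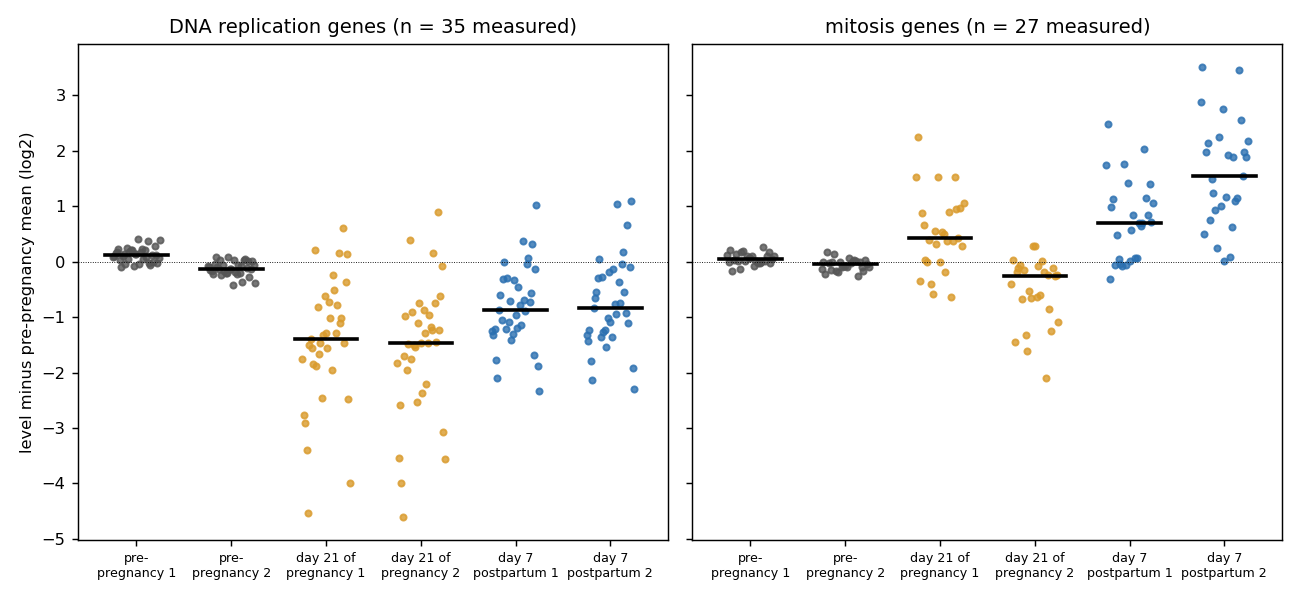
Each point is a gene of the replication list (35, left) or the mitosis list (27, right), plotted by array as its log2 level minus its own pre-pregnancy mean, with a bar at the median. Replication genes lie mostly below 0 on both postpartum arrays, and mitosis genes mostly above 0 and highest on postpartum replicate 2.

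Of 19 growth control genes, 1 rose and 1 fell, close to the share of all genes. Cdk6, the partner of cyclin D, rose 1.43-fold, and Met, the hepatocyte growth factor receptor, fell 1.41-fold with an adjusted p of 0.048, lost with the 4 arrays alone. Gadd45b, a stress-induced growth regulator, and Egfr, the epidermal growth factor receptor, differed by 0.83 and -0.78 without passing (adjusted p 0.178 and 0.131).

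Among the whole lists, fatty acid synthesis had the largest share of risers. Of 21 measured lipogenesis genes of 23 listed, 7 rose (33.3%, against 3.91% of all genes) and none fell, with a median difference of 0.54. Fasn, fatty acid synthase, stood at 12.09 and 12.11 before pregnancy, 10.69 and 11.68 in late pregnancy and 13.46 and 13.11 after birth. It was 2.27-fold above pre-pregnancy (1.18 ± 0.283, adjusted p 0.0464, limma) and further above late pregnancy (2.10, adjusted p 0.0128). The order of Fasn was therefore lowest in late pregnancy, intermediate before and highest after birth.

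The acetyl-CoA carboxylases Acaca and Acacb, which make malonyl-CoA, rose 1.89-fold and 2.5-fold. Acaca went from 10.11 and 9.79 to 11.05 and 10.68, and Acacb from 9.30 and 9.43 to 11.02 and 10.36, while a second, dim probe set of Acacb differed by -0.02. Acss2, which activates acetate, rose 1.97-fold from 11.29 and 11.32 to 12.53 and 12.03, and was lowest in late pregnancy at 10.15 and 10.43. Pgd, of the pentose phosphate route that supplies NADPH, rose 2.66-fold from 10.49 and 10.42 to 12.08 and 11.65 (1.41 ± 0.212, adjusted p 0.0115). Slc25a1, the citrate carrier, rose 1.49-fold. Mlxipl, the carbohydrate response factor ChREBP, rose 1.55-fold from 10.61 and 10.86 to 11.45 and 11.28.

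Acly, ATP citrate lyase, and Elovl6, a fatty acid elongase, had differences of 0.90 each that did not pass (adjusted p 0.0772 and 0.246). Acly passed with the 4 arrays alone and Elovl6 under the mean of all probe sets. Both were above late pregnancy (1.68, adjusted p 0.0186, and 2.98, adjusted p 0.0133). Srebf1, the sterol response factor of fat synthesis, stood at 11.89 and 11.98 before and 11.89 and 12.07 after, a difference of 0.04 ± 0.206. Against late pregnancy 12 of the 21 lipogenesis genes were called higher and none lower. The median level of the list was 11.29 and 11.09 before pregnancy, 10.38 and 10.43 in late pregnancy and 11.91 and 11.65 after birth. No lipogenesis gene was called with either pre-pregnancy array or postpartum replicate 1 left out, and 4 were called without postpartum replicate 2. Under the mean of all probe sets the calls of Fasn and Acacb were also lost.

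Cholesterol synthesis showed little. Of 17 measured genes of 20 listed, 1 rose, the sterol reductase Tm7sf2 (1.36-fold), with a list median of 0.26 and 14 positive differences. The largest difference was in Mvd, mevalonate decarboxylase, at 8.74 and 8.21 before and 10.02 and 10.01 after, which did not pass with pregnant arrays at 6.31 and 8.61 in the same fit (1.54, adjusted p 0.177) and passed with the 4 arrays alone. Mvk, mevalonate kinase, also passed only with the 4 arrays alone (0.84, adjusted p 0.0656 with all 6). Among 13 sterol regulators, Scap, which escorts the sterol response factors, rose 1.85-fold, and Abcg5, a biliary sterol exporter, fell 1.87-fold, while its partner Abcg8 differed by -0.44 (adjusted p 0.135). Srebf2 differed by 0.27 (adjusted p 0.294).

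Genes that store and release fat moved in both directions, 3 of 20 higher and 3 lower. Gpam, which starts glycerolipid synthesis, rose 1.74-fold from 12.26 and 12.32 to 13.30 and 12.87. Lpin1, which makes diacylglycerol and coactivates oxidation genes, fell 2.13-fold from 11.04 and 10.85 to 10.23 and 9.48, and the fall was -0.72 without postpartum replicate 2 and -1.46 without postpartum replicate 1. The lipase gene Pnpla2 rose 1.46-fold and Lipe 1.43-fold, while G0s2, an inhibitor of Pnpla2, fell 1.86-fold from 10.28 and 10.70 to 9.69 and 9.50. Ces1d, a carboxylesterase, fell 1.33-fold. Pnpla3, a lipase relative that follows feeding, had 1 of the largest uncalled differences, from 10.32 and 9.48 to 11.94 and 11.59 (1.86 ± 0.989, adjusted p 0.32), with pregnant arrays at 6.37 and 10.15.

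Of 28 measured oxidation and ketogenesis genes of 33 listed, 2 rose and 4 fell. Ppara, the nuclear receptor that drives fat oxidation, fell 1.81-fold from 11.93 and 11.81 to a mean of 11.01 (-0.86 ± 0.119, adjusted p 0.00918). Angptl4, a Ppara target that inhibits lipoprotein lipase, fell 2.41-fold from 10.98 and 10.93 to 9.91 and 9.46, also below late pregnancy (-1.75, adjusted p 0.00471). Cpt1a, the gate of the carnitine shuttle, fell 1.66-fold from 11.37 and 11.35 to 10.58 and 10.68, and Bdh1, which reduces ketone bodies, 1.39-fold, a call lost with the 4 arrays alone. These 4 falls lay in regulation, carnitine entry and ketone synthesis, and of the 14 beta-oxidation genes 1 rose, Acads (1.64-fold), and none fell. Eci3, given above among the largest rises (7.06-fold), stands outside this list.

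Cd36, a fatty acid uptake receptor, rose 3.01-fold from 8.27 and 7.67 to 9.72 and 9.40 (1.59 ± 0.235, adjusted p 0.0108), and was as high in late pregnancy at 10.39 and 9.88. Fgf21, a hepatokine of fasting, stood at 6.39 and 6.48 before and 6.29 and 6.25 after, a difference of -0.16 ± 0.14, and was below late pregnancy (-1.74, adjusted p 0.00249). Vnn1, a pantetheinase and Ppara target, differed by -0.68 from pre-pregnancy (adjusted p 0.205) and by -2.90 from late pregnancy (adjusted p 0.00381).

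Of 20 measured genes of lipoproteins and lipases, 5 rose (25%, against 3.91% of all genes) and none fell. The left-out counts were 1, 1, 2 and 1 rises. Pltp, the phospholipid transfer protein, rose 2.69-fold from 9.13 and 9.05 to 10.40 and 10.64 (1.43 ± 0.115, adjusted p 0.0017), above late pregnancy as well (0.94, adjusted p 0.00898), and this call held throughout. Lpl, lipoprotein lipase, which adult liver normally holds at a low level, rose 2.35-fold from 8.80 and 8.43 to 9.67 and 10.03 and stood at 9.77 and 9.63 in late pregnancy. The apolipoproteins Apoa4, Apob and Apoc2 rose 1.46-fold, 1.45-fold and 1.36-fold. Apob was lost under the mean of all probe sets, since its second probe set differed by -0.32. Angptl8, a partner of the lipase inhibitors that follows feeding, differed by 1.26 without passing (adjusted p 0.11).

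**Figure D3:**
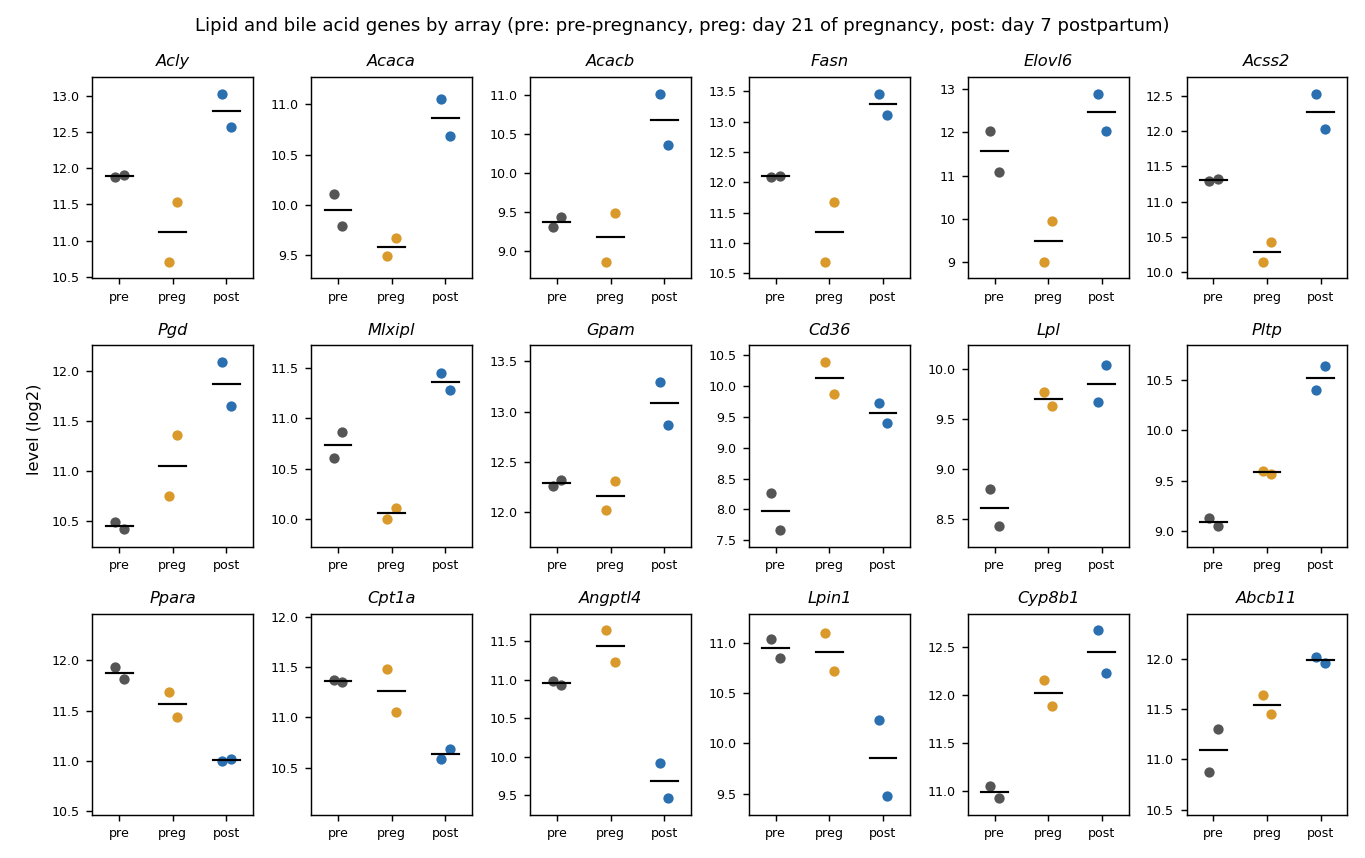
Log2 levels by array for 18 lipid and bile acid genes, with 2 points a group and a line at their mean, each panel with its own vertical range. Fasn, Acss2 and Mlxipl are lowest in late pregnancy and highest after birth, Cd36 and Lpl are high in both later groups, and Ppara, Cpt1a, Angptl4 and Lpin1 are lowest after birth.

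In bile acid synthesis 3 of 18 genes rose (16.7%, against 3.91% of all genes) and 2 fell (11.1%, against 3.75%). Cyp8b1, the 12-hydroxylase that sets the share of cholic acid, rose 2.74-fold from 11.06 and 10.93 to 12.67 and 12.23 (1.46 ± 0.164, adjusted p 0.00483, limma). Cyp39a1, an oxysterol hydroxylase, rose 3.05-fold from 8.20 and 8.21 to 10.01 and 9.62 (1.61 ± 0.14, adjusted p 0.00196) and held throughout. Klb, the coreceptor for Fgf15, rose 1.47-fold with an adjusted p of 0.041, lost with the 4 arrays alone, and its other probe set differed by 0.04. Nr1h4, the bile acid receptor Fxr, fell 1.38-fold from 10.42 and 10.52 to 10.01 and 10.01, and Scp2, a sterol carrier, 1.47-fold.

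Cyp7a1, whose enzyme limits the rate of the classic route from cholesterol, showed no difference beyond its spread. It stood at 11.18 and 11.36 before pregnancy, 9.45 and 12.39 in late pregnancy and 12.02 and 11.65 after birth (0.56 ± 0.758, adjusted p 0.743), so the 2 pregnant arrays lay furthest apart. Nr0b2, the repressor Shp that acts on Cyp7a1, stood at 9.38 and 10.46 before and 9.94 and 9.85 after (-0.02 ± 0.586), with overlapping groups. Cyp7b1, of the alternative route, differed by -0.61 (adjusted p 0.222).

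Of 19 transporters, 3 rose and 3 fell (15.8% each, against 3.91% and 3.75% of all genes). Abcb11, the bile salt export pump, rose 1.87-fold from 10.88 and 11.30 to 12.02 and 11.96, and Abcc4, an export pump on the blood side, 1.78-fold from 6.76 and 6.44 to 7.52 and 7.34. Slco2a1, a prostaglandin carrier, rose 2.06-fold. Of 8 uptake carriers 3 fell, with Slc22a7, an organic anion carrier, down 2.20-fold from 11.81 and 11.56 to 10.41 and 10.69 and Slco1a1 down 1.42-fold. Slc10a2, the apical bile salt carrier, went from 6.45 and 5.85 to a dim 4.11 and 4.23 (-1.98 ± 0.185, adjusted p 0.0025), with late pregnancy at 4.18 and 4.31, and was the 1 transporter call that held throughout. Abcg2, a half-size efflux pump also used in milk secretion, differed by -0.58 without passing (adjusted p 0.0603).

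Among 32 measured drug-metabolising P450 genes of 39 listed, 5 rose (15.6%, against 3.91% of all genes) and 8 fell (25%, against 3.75%). The left-out counts were 3, 3, 3 and 5 higher and 2, 4, 4 and 4 lower. Cyp3a16 rose 3.13-fold from 9.95 and 10.19 to 11.75 and 11.68 (1.64 ± 0.123, adjusted p 0.00143, limma), below its late pregnancy level of 12.21 and 12.39 (-0.58, adjusted p 0.049). Cyp3a44, a close relative that stands in the female-biased list, rose 2.33-fold from 10.38 and 10.42 to 11.65 and 11.59. Cyp2c55 went from a dim 5.44 and 5.24 to 6.95 and 6.77 (1.52 ± 0.127), while late pregnancy was dim too (1.60, adjusted p 0.00244). Cyp1a1, the target of the aryl hydrocarbon receptor, rose 2.58-fold from 5.91 and 5.36 to 7.37 and 6.64, and Cyp2b10, the target of the receptor Car, 2.47-fold from 9.73 and 9.90 to 11.33 and 10.91. Both lay above late pregnancy as well (1.36, adjusted p 0.0355, and 1.10, adjusted p 0.0298).

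The falls reached some of the most abundant P450 genes. Cyp2b13 fell 7.13-fold, from 12.58 and 12.31 to 9.12 and 10.10 (-2.84 ± 0.306, adjusted p 0.00443). Cyp2c54 fell 2.23-fold from 12.82 and 12.72 to 11.52 and 11.70, Cyp2c50 1.44-fold, Cyp2j5 1.41-fold and Cyp3a13 1.49-fold. Cyp3a11, the main mouse relative of human CYP3A4, fell 1.41-fold from 14.33 and 14.41 to 13.95 and 13.80. In the Cyp2d cluster, the mouse relatives of CYP2D6, 2 of 8 measured genes fell and none rose. Cyp2d9 fell 5.39-fold from 8.78 and 8.68 to 6.16 and 6.44 (-2.43 ± 0.169, adjusted p 0.00138), close to late pregnancy at 6.80 and 6.34, and Cyp2d13 fell 1.86-fold. Cyp2d22 showed no detectable difference, at 11.44 and 11.53 before and 11.46 and 11.45 after (-0.03 ± 0.0984). Cyp1a2 differed by 0.44 (adjusted p 0.0674) and Cyp2e1 by -0.40 (adjusted p 0.0661). Of these calls Cyp3a16, Cyp3a44, Cyp2c55, Cyp2c54 and Cyp2d9 held throughout. Members of the Cyp2b, Cyp2c, Cyp2d and Cyp3a families are near-identical in parts, so a probe set may read more than 1 of them.

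Of 17 measured receptors and regulators of these genes, 5 fell (29.4%, against 3.75% of all genes) and 1 rose. The left-out counts were 0, 1, 3 and 1 falls. Esr1, the estrogen receptor, fell 2.26-fold from 12.18 and 12.02 to 10.90 and 10.95, with late pregnancy at 10.39 and 11.09. Cebpb, a factor of acute phase and gluconeogenic genes, fell 1.95-fold from 12.15 and 11.94 to 11.08 and 11.09 (-0.96 ± 0.121, adjusted p 0.00698). Nr3c1, the glucocorticoid receptor, fell 1.74-fold from 10.96 and 10.66 to 10.15 and 9.87, Prox1 1.57-fold and Arnt, the partner of the aryl hydrocarbon receptor, 1.5-fold. Cebpa, the factor of the differentiated hepatocyte, rose 1.45-fold from 11.26 and 11.37 to 11.77 and 11.94. Hnf4a, a main hepatocyte factor, stood at 12.52 and 12.64 before and 12.61 and 12.69 after (0.07 ± 0.105), and -0.20 under the mean of all probe sets. Klf9, a factor induced by steroid and thyroid hormones, stood at 11.96 and 12.10 before, 13.01 and 12.78 in late pregnancy and 12.17 and 11.96 after, which differed from late pregnancy (-0.83, adjusted p 0.0189) and not detectably from pre-pregnancy (0.04 ± 0.129).

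Calls were mostly higher among glutathione transferases and mostly lower among genes listed under glucuronidation. Of 16 measured genes of glutathione transfer and methylation, 7 rose (43.8%, against 3.91% of all genes) and 1 fell. Of 11 measured genes listed under glucuronidation, Ugt3a1 among them, 1 rose and 4 fell (36.4%, against 3.75% of all genes). These 4 falls lost their calls with any of the 4 compared arrays left out. Besides Gstm3, the mu class genes Gstm4, Gstm2 and Gstm1 rose 3.49-fold, 2.20-fold and 1.83-fold. Gstm4 went from 9.40 and 9.31 to 11.15 and 11.17 (1.80 ± 0.116, adjusted p 0.00112) and was above late pregnancy at 9.81 and 9.57 (1.47, adjusted p 0.00244). Gsta2, of the alpha class, rose 2.71-fold from 9.64 and 9.09 to 10.66 and 10.95, and Gstt3, of the theta class, 1.91-fold. Gstz1, which also acts in tyrosine breakdown, fell 1.33-fold with an adjusted p of 0.0495, lost with the 4 arrays alone. The mu class genes resemble each other, so their probe sets are not fully separate measures.

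Ugt2b1, Ugt2b34 and Ugt3a1, glycosyltransferases of steroids and bile acids, fell 1.49-fold, 1.39-fold and 1.67-fold. Ugt2b38 went from 6.71 and 7.30 to a dim 4.77 and 5.50 (-1.87 ± 0.351, adjusted p 0.022). Ugdh, which makes the glucuronic acid donor, rose 2.11-fold from 10.19 and 10.24 to 11.47 and 11.12. Among 8 sulfation genes 1 fell, Sult1d1, down 2.35-fold from 12.42 and 12.31 to 11.42 and 10.85. Over all 35 conjugation genes, 8 rose and 6 fell, with left-out counts of 3, 5, 7 and 6 higher and 0, 0, 1 and 0 lower. Gstm3 and Gstm4 held throughout.

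Of 18 measured antioxidant genes, of the pathway of the factor Nrf2 or of peroxide removal, 4 rose and none fell. The risers made up 22.2%, against 3.91% of all genes. All 4 calls were lost without pre-pregnancy replicate 1. Nqo1, a quinone reductase, rose 1.95-fold from 7.23 and 7.17 to 8.08 and 8.25 (0.96 ± 0.12, adjusted p 0.00671), above late pregnancy too (1.30, adjusted p 0.0032). Srxn1, sulfiredoxin, rose 1.85-fold and Keap1, the inhibitor of Nrf2, 1.57-fold. Hmox1, heme oxygenase, rose 1.77-fold from 7.52 and 7.27 to 8.18 and 8.26, and read 8.23 and 8.25 in late pregnancy. Nfe2l2, which encodes Nrf2 itself, differed by 0.34 (adjusted p 0.117). Gpx3, a secreted peroxidase, stood at 7.40 and 6.94 before, 11.02 and 11.28 in late pregnancy and 7.74 and 7.87 after, so it was far below late pregnancy (-3.34, adjusted p 0.000587) and did not pass against pre-pregnancy (0.64, adjusted p 0.0617).

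**Figure D4:**
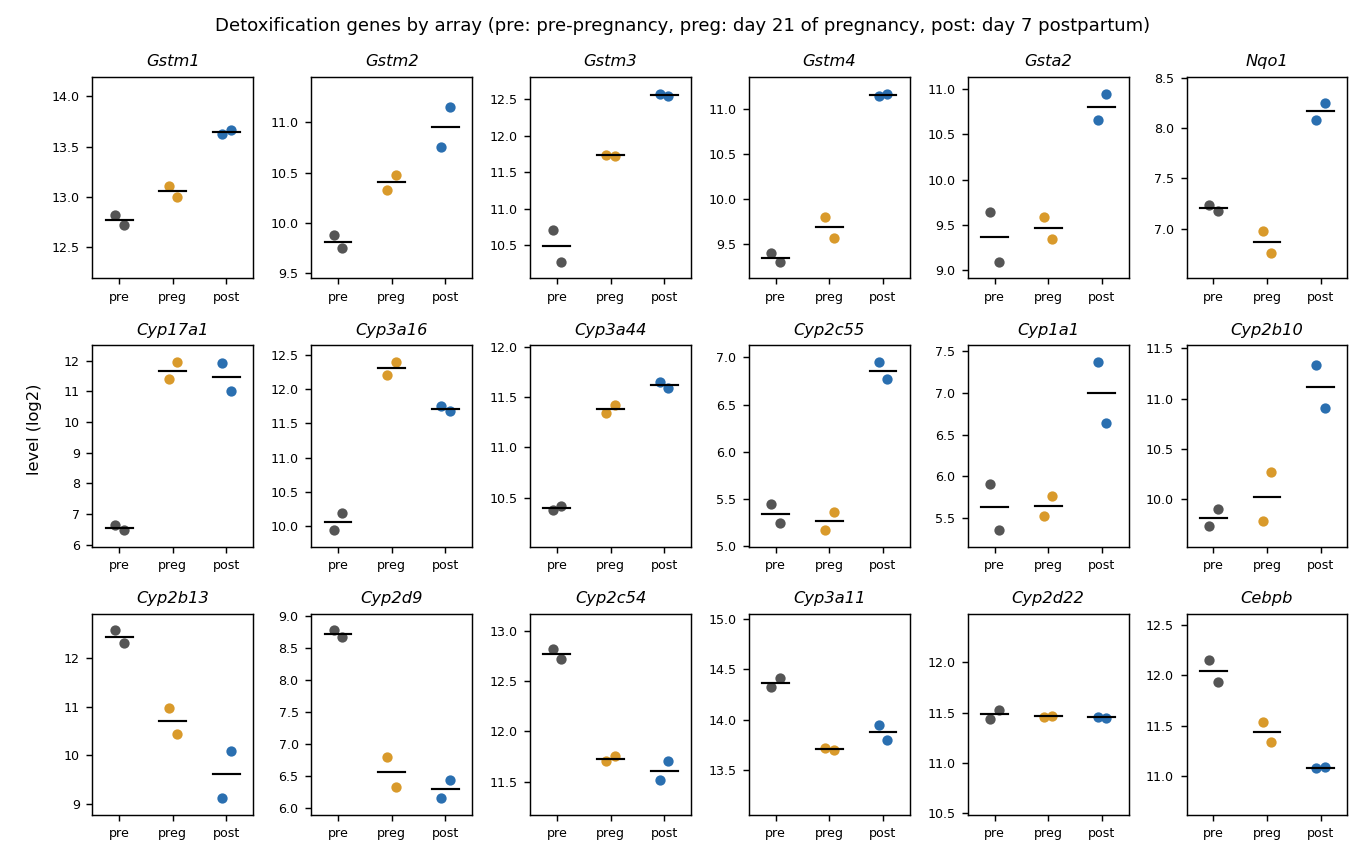
Log2 levels by array for 18 detoxification genes, with 2 points a group and a line at their mean, each panel with its own vertical range. Gstm3 and Gstm4 are highest after birth, Cyp17a1 is high in both later groups, Cyp2b13 and Cyp2d9 are low in both, and Cyp2d22 stays near 11.45 throughout.

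Of 51 measured amino acid genes, 8 were called higher (15.7%, against 3.91% of all genes) and 3 lower (5.88%, near the 3.75% of all genes). As left-out counts, 1, 3, 1 and 1 were called higher and none lower. Of the risers, 4 belong to serine, glycine and sulfur amino acid metabolism. Cbs, which makes cystathionine from homocysteine, rose 2.77-fold from 10.33 and 10.90 to 12.06 and 12.11 (1.47 ± 0.177, adjusted p 0.00611, limma) and read 11.76 and 11.90 in late pregnancy. Csad, of taurine synthesis, rose 3.78-fold from 9.09 and 9.28 to 11.41 and 10.80. Gldc, the glycine cleavage decarboxylase, rose 1.70-fold and Agxt, which removes glyoxylate, 1.48-fold.

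Aldh18a1, of proline synthesis, rose from a dim 5.12 and 4.77 to 7.83 and 6.81 (2.38 ± 0.469, adjusted p 0.0256), with its 4 other probe sets between 0.29 and 1.15. The probe set chosen for Ass1, a urea cycle enzyme of high abundance in liver, read only 6.09 and 6.72 before and 7.33 and 7.29 after. It rose 1.87-fold, and the difference was 0.59 without pre-pregnancy replicate 1 and 1.22 without pre-pregnancy replicate 2. Ddc, the aromatic amino acid decarboxylase, rose 1.71-fold and Uroc1, of histidine breakdown, 1.45-fold. Oat, ornithine aminotransferase, fell 1.87-fold from 12.42 and 12.62 to 11.57 and 11.66, with pregnant arrays lower still at 11.23 and 10.97. Tdo2, which opens the tryptophan ring, fell 1.75-fold and Slc25a13, an aspartate carrier of the urea cycle, 1.41-fold.

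Of 14 amino acid carriers 2 rose and none fell. Slc3a1, the heavy chain of a cystine carrier, rose 2.60-fold from 8.95 and 8.70 to 10.38 and 10.03 (1.38 ± 0.153, adjusted p 0.00454), and Slc1a4, a neutral amino acid carrier, 1.74-fold. In the tricarboxylic acid cycle list 4 of 13 genes rose, namely Ogdh (1.78-fold), Dlat (1.56-fold), the citrate synthase Cs (1.53-fold) and Idh2 (1.41-fold), and Idh3a fell 1.57-fold. Dlat belongs to pyruvate dehydrogenase, which feeds the cycle and is not a step of it. The other probe sets of Idh3a differed by -0.09 to 0.04, and the calls of Ogdh, Dlat and Idh3a were lost under the mean of all probe sets, that of Dlat also with the 4 arrays alone. As left-out counts, 0, 1, 0 and 1 cycle genes were called higher. Of 23 glucose and glycogen genes 1 was called. Gys2, liver glycogen synthase, fell 1.86-fold from 10.78 and 10.62 to 9.92 and 9.69, below late pregnancy too (-0.76, adjusted p 0.035). Ppp1r3c, which targets a phosphatase to glycogen, and Pck1, of gluconeogenesis, differed by 1.21 and -0.70 without passing (adjusted p 0.0508 and 0.0892). Of the calls named among amino acid, carrier, cycle and glucose genes, Cbs and Slc3a1 held throughout.

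Of 33 measured acute phase genes of 36 listed, 6 fell (18.2%, against 3.75% of all genes) and 1 rose. The left-out counts were 0, 3, 2 and 2 falls. Mt2, a metallothionein induced by glucocorticoids, cytokines and zinc, fell 3.36-fold from 12.07 and 11.92 to 10.55 and 9.94 (-1.75 ± 0.186, adjusted p 0.00432, limma) and stood at 13.05 and 13.03 in late pregnancy. Steap4, a metalloreductase, fell 2.17-fold from 11.13 and 11.08 to 10.06 and 9.91. The orosomucoid genes Orm3 and Orm2 fell 1.97-fold and 1.79-fold, the interleukin-1 receptor Il1r1 1.59-fold and the constitutive serum amyloid Saa4 1.43-fold. Apcs, serum amyloid P, rose 1.61-fold from 13.42 and 13.29 to 14.02 and 14.06. Saa1 and Socs3, both strongly induced in inflammation, differed by -0.65 and -0.64 without passing (adjusted p 0.345 and 0.432). Socs3 read 9.21 and 7.66 before pregnancy and 7.60 and 8.0 after, so its groups overlapped. Against late pregnancy 13 of the 33 genes were called lower and none higher.

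In complement, 3 of 20 genes fell (15%, against 3.75% of all genes), all of the membrane attack complex. The left-out counts were 0, 2, 3 and 3 falls. C9 fell 3.60-fold from 13.24 and 13.24 to 10.91 and 11.87, above its late pregnancy level of 9.78 and 9.14 (1.93, adjusted p 0.0204). C8b fell 3.18-fold from 11.23 and 11.30 to 9.33 and 9.86, and C8a 2.70-fold from 12.07 and 12.17 to 10.50 and 10.87. C6, of the same complex, differed by -0.30 (adjusted p 0.31). Of 22 coagulation genes, F7 and F10, of the vitamin K-dependent factors, rose 1.75-fold and 1.5-fold, and F13b, a carrier of the fibrin crosslinker, fell 1.46-fold. Among 31 interferon-induced genes 2 rose, Oasl1 (1.56-fold) and Bst2 (1.52-fold), and 2 fell, Zbp1 (1.88-fold) and Ifit1 (1.43-fold), near the share of all genes.

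Liver genes that differ between the sexes in mice were set apart because growth hormone patterns drive them. Of 15 measured genes known to be higher in males, 6 fell (40%, against 3.75% of all genes) and 1 rose, with a median of -0.61 and 1, 3, 3 and 4 falls as left-out counts, and of 15 known to be higher in females, 3 rose and 3 fell. The male-biased fallers include Cyp2d9, C8b, Ugt2b38, Nudt7, a peroxisomal coenzyme A hydrolase (1.83-fold, from 13.18 and 13.34 to 12.26 and 12.51), and Cyp4a12a, dim in all groups (-0.83 ± 0.131). Gstp1, a pi class transferase, was the 1 riser, 1.76-fold from 12.93 and 12.92 to 13.71 and 13.78. The female-biased risers were Cyp17a1, Cyp3a16 and Cyp3a44, and the fallers Cyp2b13, Ntrk2 (1.95-fold) and Fmo2 (1.91-fold). Elovl3 and Cux2, which mark male and female liver, differed by -0.85 and 0.42 without passing (adjusted p 0.156 and 0.592).

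Among 22 steroid and retinoid genes 2 rose and 1 fell. Aldh1a7, a relative of the retinaldehyde dehydrogenases, rose 2.67-fold from 12.25 and 11.88 to 13.61 and 13.35 (1.42 ± 0.165, adjusted p 0.00571), held throughout and read 13.76 and 14.04 in late pregnancy. The probe set named Hsd3b2 fell 4.71-fold from 10.25 and 10.30 to 7.69 and 8.39, and since the Hsd3b genes are near-identical it may read a relative. None of the 10 measured growth hormone and prolactin signalling genes was called, which says little when 7.66% of all genes were called. In the insulin and Igf list 3 of 17 genes rose. Irs2 and Irs1, substrates of the insulin receptor, rose 2.00-fold and 1.80-fold. Irs1 went from 9.52 and 9.60 to 10.42 and 10.39, and Irs2 from 6.88 and 7.56 to 8.35 and 8.09, with a difference of 0.66 without pre-pregnancy replicate 1 and 1.34 without pre-pregnancy replicate 2. Igf2, the fetal growth factor, rose 2.09-fold from 5.63 and 5.79 to 6.64 and 6.91, while its second probe set differed by -0.10. Igf1 stood at 13.28 and 13.28 before and 12.87 and 12.88 after, a difference of -0.40 that missed the threshold narrowly (adjusted p 0.0507), and its 3 other probe sets differed by -1.04 to -0.50.

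Clock genes and their outputs were called in 5 of 24 measured, 4 lower (16.7%, against 3.75% of all genes) and 1 higher. The left-out counts were 0, 2, 4 and 3 lower. Nr1d1, the repressor Rev-erb alpha, rose 2.63-fold from 5.71 and 6.57 to 7.52 and 7.55. Cry1, of the repressing arm of the clock, fell 2.80-fold from 8.44 and 8.19 to 6.58 and 7.08 (-1.48 ± 0.194, adjusted p 0.00779, limma). Nampt, of NAD synthesis, fell 3.07-fold from 11.03 and 10.80 to 9.27 and 9.32, and Wee1, a mitotic inhibitor under clock control, 2.30-fold from 9.0 and 8.76 to 7.49 and 7.87. Lonrf3 fell 2.24-fold. None of the 24 genes was called between late pregnancy and day 7 after birth. Only 3.29% of all genes were called there, so the lack of a call among 24 genes says little. The hour of collection is not in the labels, so time of day and group cannot be told apart for these genes.

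Of 9 genes induced by glucocorticoids all had negative differences and 3 fell (33.3%, against 3.75% of all genes). These were Mt2, Zbtb16, a zinc finger factor (2.67-fold, from 8.16 and 9.03 to 7.37 and 6.99), and Fkbp5, a receptor cochaperone. Cdkn1a, listed with these hormone-responsive genes, differed by -0.46 with overlapping groups and by 0.05 without pre-pregnancy replicate 1. Fkbp5 fell 1.60-fold from 10.61 and 10.67 to a mean of 9.96, and lay below late pregnancy at 11.06 and 11.20 (-1.17, adjusted p 0.0028). Dio1, the deiodinase that is both maker and target of active thyroid hormone, fell 2.17-fold from 12.51 and 12.50 to 11.39 and 11.38 (-1.12 ± 0.0962, adjusted p 0.00189). It held throughout and was below late pregnancy as well (-0.54, adjusted p 0.031).

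Among 18 iron genes 2 rose (11.1%, against 3.91% of all genes) and 3 fell (16.7%, against 3.75%). Hamp2, a relative of the iron hormone hepcidin, rose 2.02-fold from 12.99 and 12.78 to 14.02 and 13.78, with its second probe set at 0.12. Bmp2 and Bmp6, the signals that induce hepcidin, fell 1.57-fold and 1.54-fold, and Id1, a target of those signals, fell 2.14-fold from 10.19 and 9.61 to 8.74 and 8.87. Hfe, an iron sensor, rose 1.33-fold with an adjusted p of 0.0486, a call lost with the 4 arrays alone and with any array left out. Tfrc, the transferrin receptor, differed by 1.12 from pre-pregnancy without passing (adjusted p 0.094) and was above late pregnancy (2.00, adjusted p 0.0284). Slc39a4, an intestinal-type zinc importer, rose 1.82-fold from 9.03 and 9.25 to 9.94 and 10.07.

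Of 23 genes of the unfolded protein response, 3 fell, Herpud1 (1.87-fold, from 12.67 and 12.40 to 11.56 and 11.71), Pdia4 (1.59-fold) and Dnajc3 (1.5-fold), and Edem1 rose 1.38-fold. Bag3, a cochaperone, was the 1 riser of 12 heat shock genes, 2.29-fold from 9.12 and 9.05 to 9.91 and 10.65. Of 16 hepatokines and other secreted factors, Inhbc, an activin subunit, fell 2.29-fold from 9.75 and 10.09 to 8.42 and 9.03, beside Angptl4 and Lect2, below late pregnancy as well (-1.34, adjusted p 0.0173), and Leap2, the ghrelin receptor antagonist, rose 1.77-fold. Plagl1, an imprinted growth regulator, fell 2.51-fold from 7.36 and 7.04 to 6.01 and 5.73, while its other probe sets differed by -0.09 and 0.20.

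Hepatocytes differ along the line from portal to central vein. The lists of this zonation were short, with shares called mostly above those of all genes. Among 17 pericentral genes 2 rose and 2 fell (11.8% each, against 3.91% and 3.75% of all genes). Lect2, a secreted chemotactic factor, was down 1.90-fold from 12.24 and 12.33 to 11.21 and 11.51. Rhbg, an ammonium channel, was up 1.42-fold. Among 14 periportal genes 2 rose (14.3%, against 3.91% of all genes) and none fell, with Aldh1b1 up 2.17-fold from 10.37 and 10.42 to 11.64 and 11.38.

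Calls among endothelial, macrophage and stellate markers were near the shares of all genes, though differences leaned negative in some lists. Of 21 endothelial markers 1 fell, Bmp2, of 20 macrophage markers 1 rose and 1 fell, and of 19 stellate and matrix markers 1 fell. Differences were negative for 14 of the endothelial (median -0.23) and 14 of the stellate and matrix markers (median -0.20). Marco, a scavenger receptor of macrophages, rose 2.04-fold and Timd4, a marker of resident Kupffer cells, fell 1.53-fold. Lyve1, of sinusoidal endothelium, went from 8.10 and 7.17 to 6.40 and 6.29 without passing (adjusted p 0.0583), and Sparc, a matrix protein, fell 1.45-fold. Of 15 lymphocyte markers 3 fell (20%, against 3.75% of all genes), 1 rose, and 11 of the 15 differences were negative. The fallers Gzmb, Klrd1 and Ms4a1 were dim in every group, the call of Ms4a1 was lost with the 4 arrays alone, and the probe set chosen for the immunoglobulin chain Ighm rose 1.95-fold, while its 10 others differed by -0.16 to 0.34.

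Prom1, a surface protein of progenitor and bile duct cells, was the 1 called bile duct marker of 9. It rose 3.15-fold from 7.29 and 8.11 to 9.37 and 9.34 (1.66 ± 0.235, adjusted p 0.0096, limma), with late pregnancy at 6.93 and 6.71. The bile duct keratin Krt19 read 5.37 and 4.77 before and 7.07 and 5.30 after, so 1 postpartum array alone was high, and its difference did not pass (1.12, adjusted p 0.229). Cela1, an elastase, fell 2.06-fold from 10.37 and 10.46 to 9.42 and 9.32, while the median of the pancreatic acinar markers lay between 5.0 and 5.34 on the 6 arrays. The part of other cell types in the mitosis calls was not tested.

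No member was called in 13 of the 57 lists, which held 154 measured genes. The 13 lists are grouped here because they held no call. With 7.66% of all genes called, a short list may hold none, so each says little alone. These include the cytosolic ribosome (14 measured, median 0.08), ribosome biogenesis (20, median 0.14), the mitochondrial ribosome (20, median 0.04), oxidative phosphorylation (22, median -0.04) and the proteasome (17, median 0.03). Neutrophil markers (13), erythroid markers (8) and the class II antigen presentation genes (6) were not called either, though all 6 of the latter had negative differences, with a median of -0.27.

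**Figure D5:**
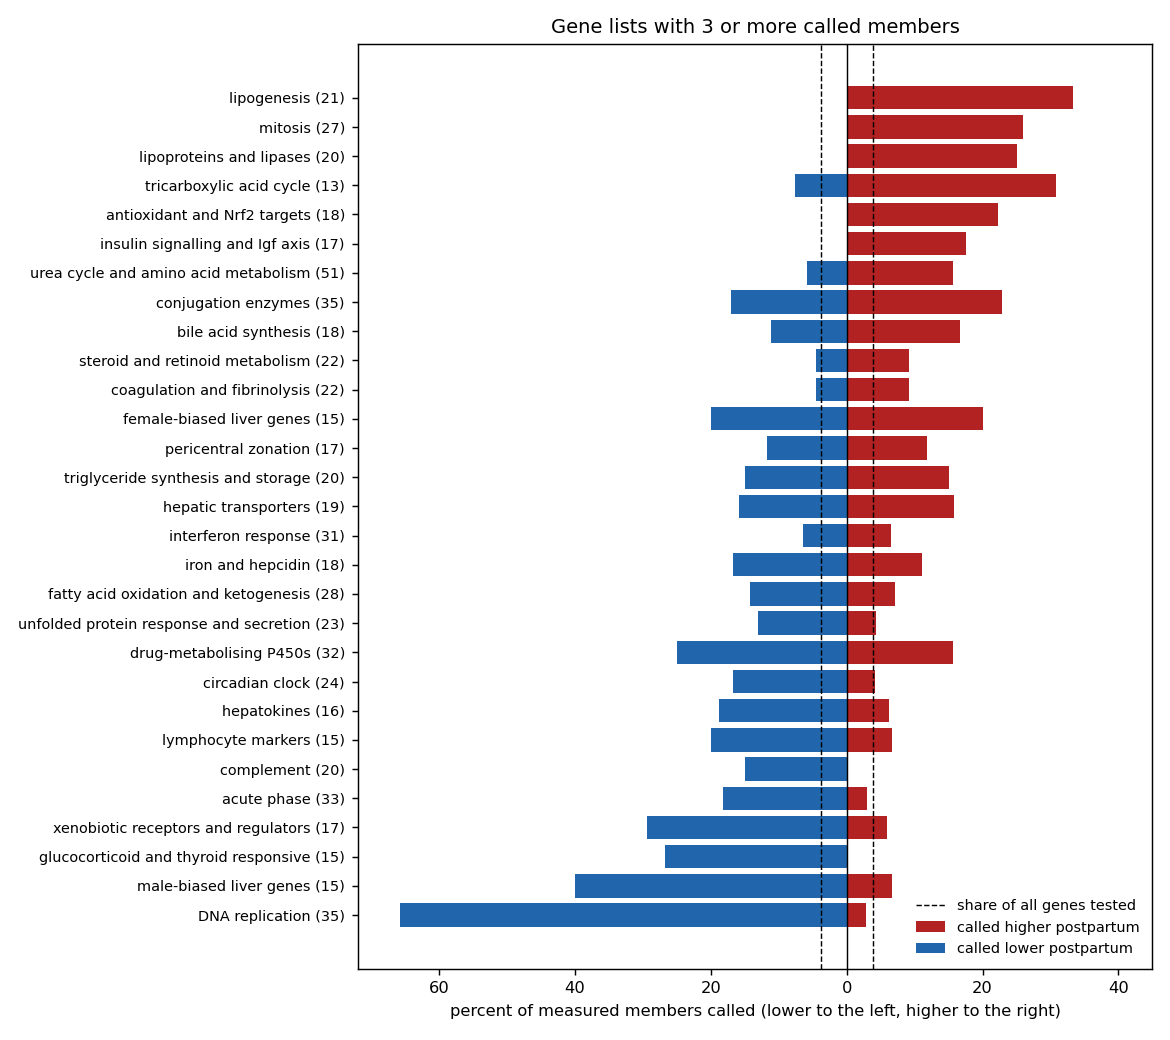
Percent of the measured members of each list called lower (left, blue) or higher (right, red) after birth than before pregnancy, for lists with 3 or more called members, with the number measured in brackets. Dashed lines mark the shares of all genes tested, 3.75% lower and 3.91% higher, and the longest bars are DNA replication to the left (65.7%) and lipogenesis to the right (33.3%).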

How the data were processed

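Total liver RNA of 6 mice or pools of CYP2D6 transgenic C57BL/6 mice was hybridised to Affymetrix mouse arrays, per the labels' protocols. The deposited values are log2 probe set signals that the authors made with RMA in Affymetrix Power Tools, per the submitters' processing notes, which give no version. The log2 scale is read from the range of values (2.69 to 15.05). By its definition RMA subtracts background, quantile-normalizes the arrays and summarises probes, so levels near the bottom are compressed and a shift shared by all genes is removed. The arrays carry no counts, and their number limits the precision.

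Of 45101 probe sets, 34958 had 1 gene symbol in the platform annotation, 932 had several and 9160 none here, and 64 controls were left out. Of the first, 34754 matched the RefSeq gene table by gene ID, with 0 symbols changed. Each of 18194 genes was read from its brightest probe set by the 6-array mean, and 9012 of these genes had more than 1 probe set. limma 3.58.1 in R 4.3.3 fitted a mean for each group on all 6 arrays (3 residual and 4.80 prior degrees of freedom), with Benjamini-Hochberg adjustment over all genes and a threshold of 0.05, two-sided.

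The comparison, the 57 gene lists and the genes to name were chosen with earlier results of these data known. Genes named are the 15 largest called rises and falls (groups apart, higher group mean at or above 6.38, placeholder symbols left out), up to 6 called and 2 uncalled members of each list with a call, and a fixed set of regulators and marker genes. Further replication, mitosis, lipogenesis, P450, conjugation, acute phase and amino acid members were named after their values were seen, to complete a count. Promoter letters were searched in the first RefSeq window of each gene. In 20 simulations with 200 genes changed, the fit recovered 8.06% of log2 changes of 0.5, 86.2% of 1 and 99.3% of 2, and 5.54% of its calls were false. The data gave 1393 calls, more than the 200 genes changed there, so these shares are not the sensitivity of this comparison. Alternatives covered the replicate block, dim genes, normalization, variance model, probe set rule, thresholds and each array left out.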

Additional observations from a re-analysis of the deposited data

How the results depend on the processing

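Counts of called genes depended most on single arrays. Leaving out 1 array in turn gave totals from 73 to 1582, with 46 to 827 higher and 27 to 755 lower, the largest values without a pregnancy array. An adjusted p under 0.1 gave 2487 (1287 higher, 1200 lower), a 2-fold minimum 263 (138 and 125), and testing every probe set 2182, of which 1313 were lower. The replicate numbers of the labels paired no samples detectably, since the deviations of same-numbered arrays correlated at 0.0285, 0.111 and -0.0273, and a replicate block gave 1567 calls. Of the 203 called genes named, 193 kept the call with the replicate block, 192 of 192 without dim genes, 200 with quantile normalization again, 194 with centred arrays, 185 with trended and robust variance, 167 with the mean of all probe sets and 196 with the 4 arrays alone. Left-out arrays cost more: 28 calls were kept without pre-pregnancy replicate 1, 76 without replicate 2, 100 without postpartum replicate 1 and 83 without replicate 2, and 26 in all of these fits. None of the 203 reversed. Uncalled genes that changed sign were Hnf4a (-0.20) and Klf9 (-0.18) under the mean of all probe sets, Nr0b2 under quantile normalization again (0.00), and, over the left-out arrays, Socs3 (-1.41 to 0.14), Cdkn1a (-0.98 to 0.05), Tat (-0.12 to 0.28), Nr0b2 (-0.56 to 0.52), Klf9 (-0.07 to 0.14), Cyp2d22 (-0.08 to 0.02) and Srebf1 (-0.04 to 0.14). The cause was not tested. Dim signals limit what could be seen of low genes.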

Other observations

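Probe sets without a single gene symbol here also differed after birth: of 10092, 142 were called higher and 126 lower than before pregnancy. Among the 838 called genes that had further probe sets, 100 had all of the others opposite in sign to the one used. Cdkn1a, a brake of the cell cycle, read 8.63 and 7.60 before pregnancy, 9.10 and 7.46 in late pregnancy and 7.28 and 8.02 after birth, so its groups overlapped and the replicates of each group lay far apart. Krt19 and Muc1, epithelial genes outside hepatocytes, read 7.07 and 6.25 on postpartum replicate 1 and 5.30 and 5.02 on postpartum replicate 2, against 4.77 to 5.37 and 4.79 to 4.89 before pregnancy. Peg3, an imprinted gene, differed by 0.86 from pre-pregnancy (adjusted p 0.0993, limma) and by -1.48 from late pregnancy (adjusted p 0.0313).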
